A study of Homo sapiens with 9 samples.

Results

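The genes described here are 10 heat shock proteins and partners of the cytosol and the mitochondrion: HSPA1A, HSPA1B, HSPA8, DNAJB1, HSPH1, BAG3, HSP90AA1, HSPB1, HSPD1 and HSPE1. They were chosen by symbol, and every probe set whose platform annotation names one of them was taken, which gave 10 of 21357 gene symbols and 24 of 54613 probe sets. Of the 24 probe sets, 17 name 1 gene and 7 name several. The 3 probe sets of HSPA1A all name HSPA1B too, so the paired genes were not separated, and the 4 probe sets of HSPA8 also name SNORD14C and SNORD14D, small nucleolar RNA genes that lie in its introns. The cells were Huh7, an established human hepatocellular carcinoma line, and PGG is pentagalloyl glucose, a plant polyphenol. RNA was profiled on 9 Affymetrix expression arrays, 3 for PGG at 0.1 mg/mL for 6 hours (PGG 6 h), 3 for PGG at 0.1 mg/mL for 48 hours (PGG 48 h) and 3 for the solvent PBS for 48 hours (PBS), and the labels name the 3 arrays within each group as biological replicates. There was no 6-hour PBS group, so the time in culture differs between PGG 6 h and PBS and cannot be told apart from PGG there. The description field of the PBS arrays gives a time of 0 hours of PGG, whereas their titles and the methods give 48 hours of solvent.

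Heat shock proteins are chaperones: they bind unfolded polypeptides, keep them from aggregating and help them to fold. In the cytosol, HSP70 works in cycles with a J-domain partner that delivers the client and a nucleotide exchange factor that releases it, and it passes some clients on to HSP90. In the mitochondrial matrix, the HSPD1 ring and its HSPE1 lid enclose imported proteins while they fold. When unfolded protein builds up, heat shock factor 1 (HSF1) binds heat shock elements, runs of the unit GAA and its reverse complement TTC, and raises transcription of most of these genes. Hepatocytes and hepatoma cells make and secrete much protein, and tumour cells often depend on these chaperones.

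As many of these genes are known HSF1 targets in human cells, their promoters were searched for the letters of heat shock elements. RefSeq promoter windows of GRCh38.p14, 250 bases before to 50 bases after each annotated start, were found for 10 of the 10 genes, 14 windows in all. A pair of units (GAANNTTC or TTCNNGAA, on both strands, matches of a triplet included) was present in 57.1% of the member windows, 8 of 14 from 7 genes, against 13.5% of all 35116 windows. An overlapping triplet (GAANNTTCNNGAA or TTCNNGAANNTTC) was present in 21.4%, 3 of 14, against 0.49% of all windows. The windows below are those of the inducible HSP70, the J-domain partner, HSP90, the constitutive HSP70 and the mitochondrial ring, with the matched letters in capitals, and that of the mitochondrial lid, which holds none. They lie at chr6:31815293-31815592, plus strand (HSPA1A), chr19:14518348-14518647, minus strand (DNAJB1), chr14:102086995-102087294, minus strand (HSP90AA1), chr11:123062087-123062386, minus strand (HSPA8), chr2:197499791-197500090, minus strand (HSPD1) and chr2:197500129-197500428, plus strand (HSPE1).
HSPA1A: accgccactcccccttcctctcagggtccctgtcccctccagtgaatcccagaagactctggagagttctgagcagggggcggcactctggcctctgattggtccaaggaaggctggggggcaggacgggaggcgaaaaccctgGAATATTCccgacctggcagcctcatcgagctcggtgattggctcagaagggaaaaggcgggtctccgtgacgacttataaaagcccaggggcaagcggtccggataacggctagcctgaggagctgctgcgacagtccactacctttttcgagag
DNAJB1: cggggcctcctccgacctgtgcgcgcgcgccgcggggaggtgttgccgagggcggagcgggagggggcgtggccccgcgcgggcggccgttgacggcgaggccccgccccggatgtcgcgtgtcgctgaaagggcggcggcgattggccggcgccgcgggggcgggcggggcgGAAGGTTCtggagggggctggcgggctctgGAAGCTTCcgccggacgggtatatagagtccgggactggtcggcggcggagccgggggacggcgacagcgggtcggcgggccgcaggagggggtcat
HSP90AA1: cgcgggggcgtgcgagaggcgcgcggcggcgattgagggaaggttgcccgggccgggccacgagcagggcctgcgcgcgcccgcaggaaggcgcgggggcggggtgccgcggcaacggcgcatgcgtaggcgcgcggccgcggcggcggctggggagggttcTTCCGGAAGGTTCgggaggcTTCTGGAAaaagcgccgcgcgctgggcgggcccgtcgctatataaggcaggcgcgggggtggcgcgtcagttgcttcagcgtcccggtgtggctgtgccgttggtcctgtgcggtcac
HSPA8: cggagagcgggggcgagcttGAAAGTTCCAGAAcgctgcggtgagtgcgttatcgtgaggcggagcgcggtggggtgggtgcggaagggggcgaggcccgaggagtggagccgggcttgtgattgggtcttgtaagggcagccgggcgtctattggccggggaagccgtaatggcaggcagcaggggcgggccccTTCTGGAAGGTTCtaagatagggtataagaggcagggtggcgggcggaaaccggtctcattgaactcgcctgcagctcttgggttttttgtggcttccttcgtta
HSPD1: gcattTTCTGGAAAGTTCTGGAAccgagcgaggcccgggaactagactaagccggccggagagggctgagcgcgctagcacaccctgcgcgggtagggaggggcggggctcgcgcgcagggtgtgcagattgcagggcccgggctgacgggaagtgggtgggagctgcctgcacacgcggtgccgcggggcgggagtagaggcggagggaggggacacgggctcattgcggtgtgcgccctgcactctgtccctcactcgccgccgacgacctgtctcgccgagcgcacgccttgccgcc
HSPE1: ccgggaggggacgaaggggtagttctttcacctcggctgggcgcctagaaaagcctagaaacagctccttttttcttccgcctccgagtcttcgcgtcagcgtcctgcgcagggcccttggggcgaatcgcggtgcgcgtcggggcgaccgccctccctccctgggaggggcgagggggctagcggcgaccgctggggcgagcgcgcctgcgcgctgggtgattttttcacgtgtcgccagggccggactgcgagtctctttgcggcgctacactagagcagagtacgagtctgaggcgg

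In HSPA1A the pair spans bases -106 to -99 from the start, and in HSPA1B it spans -105 to -98. The HSPA1A and HSPA1B windows share 277 of 301 aligned columns. DNAJB1 has a pair at -77 to -70 and another at -47 to -40 in the window shown, and 1 more at 2 to 9 in the window of another start. HSP90AA1 has a triplet at -88 to -76 and a separate pair at -68 to -61, and HSPA8 has a triplet at -230 to -218 and another at -55 to -43. The 2 triplets of HSPD1 overlap and together span -245 to -228 in the window shown. This window lies inside the annotated gene, as do the windows shown of DNAJB1, HSP90AA1 and HSPA8. The window of the outer HSPD1 start holds 0 pairs, as do the outermost windows of HSP90AA1 and DNAJB1. HSPB1 has a pair at -182 to -175. In the windows of HSPH1, BAG3 and HSPE1 these letters are absent, which says nothing of sites elsewhere. The HSPD1 window that holds the triplets ends at base 197500090 of chromosome 2, and the HSPE1 window begins at base 197500129. Those triplets therefore lie upstream of the HSPE1 start, just outside its window. HSPD1 and HSPE1 are transcribed away from each other with 104 bases between the genes, and the second HSPD1 window overlaps the HSPE1 window by 204 bases that hold no match. A match of letters is a description and not a measured binding site.

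**Figure D1:**
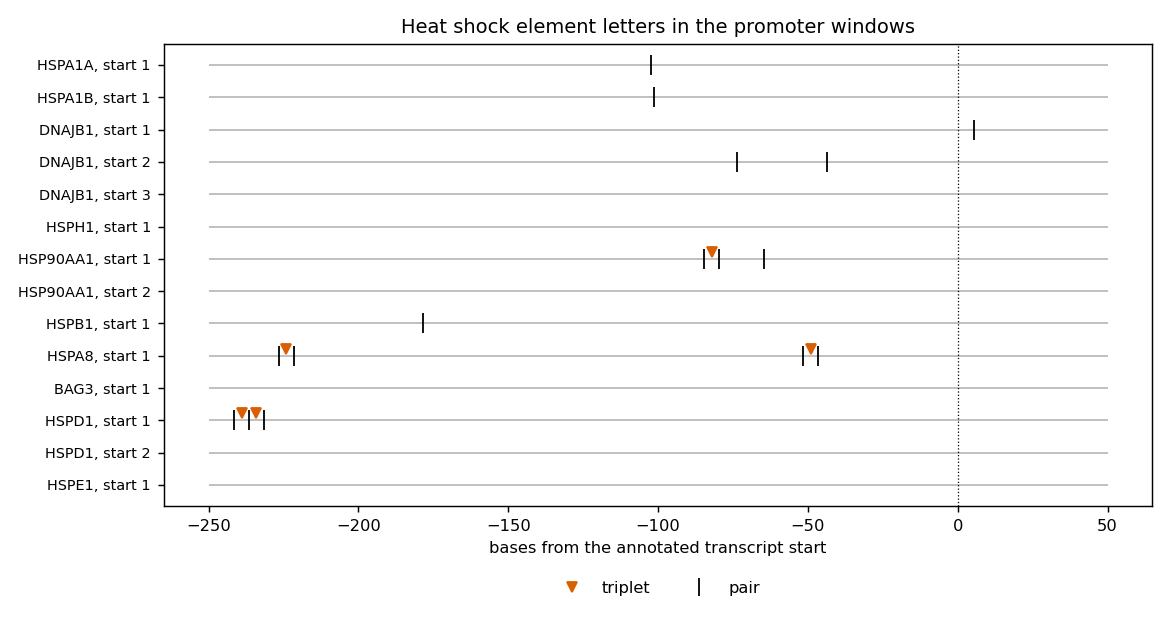
Positions of heat shock element letters in the RefSeq promoter windows of the 10 genes, with distance from the annotated start in bases on the horizontal axis and 1 row per window. Matches stand in 8 of 14 windows, and triplets only in those of HSP90AA1, HSPA8 and HSPD1.

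The arrays were alike in scale, with medians of 5.17 to 5.20 on the log2 scale. All 11 measured hepatocyte and hepatoma markers of 12 listed lay above the array median in every group. Their summed level was 15.77 to 15.80 log2 on the PGG 6 h arrays, 15.62 to 15.66 on the PGG 48 h arrays and 15.70 to 15.76 on the PBS arrays. Single markers did change: 5 rose and 1 fell at 6 hours against PBS, beside 17.2% and 16.9% of all genes. At 48 hours 5 rose and 5 fell, beside 23.9% and 24.3%. Their largest changes were a rise of 1.54 for TTR at 6 hours and a fall of 1.99 for APOB at 48 hours. Markers of blood, vessel and connective tissue cells had 8 of 10 measured, and their sums were 12.12 to 12.36 in PGG 6 h, 11.94 to 12.19 in PGG 48 h and 12.23 to 12.30 in PBS. Of these 8, 4 lay above the array median in PGG 6 h, 5 in PGG 48 h and 4 in PBS. Lysozyme (LYZ) made up most of the sums at 12.13 in PGG 6 h, 11.96 in PGG 48 h and 12.14 in PBS, and COL1A1, PECAM1 and CD3E were the others above the median in all groups, at 7.52, 6.09 and 5.68 in PBS, whereas PTPRC, VWF, COL3A1 and DES were at 3.30, 4.67, 4.22 and 4.87 in PBS. Against PBS, 0 of the 8 rose and 1 fell at 6 hours. At 48 hours PECAM1 rose by 0.46 and DES by 0.32, and 3 fell. The cultures were of the Huh7 line, and the source of these signals in it was not tested. One measure of RNA condition moved with time of PGG. The 3′ minus 5′ difference of the beta-actin control probe sets was 1.17 ± 0.05 in PGG 6 h, 2.95 ± 0.97 in PGG 48 h and 1.35 ± 0.34 in PBS (log2, SD, n = 3 each). It was 2.14, 4.03 and 2.67 on the 3 PGG 48 h arrays, each above every PGG 6 h and PBS array, and on replicate 2 the GAPDH difference was also highest, at 1.83. Its part in the 48-hour differences was not tested. Without replicate 2 the 48-hour counts against PBS were 3 higher and 14 lower of 24, with the other 2 arrays still above PBS in this measure.

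Most heat shock probe sets were higher than PBS after 6 hours of PGG, and after 48 hours more were lower than PBS than higher. Of the 24, 12 were called higher at 6 hours and lower at 48 hours, whereas BAG3 and DNAJB1 were higher at both times. Of the 24 probe sets, 20 rose and 0 fell at 6 hours against PBS at an adjusted p under 0.05 by limma, against 12.2% higher and 12.5% lower among all 54613 probe sets. At 48 hours against PBS, 3 rose and 14 fell, where 18.8% of all probe sets rose and 20.2% fell. Between the times of PGG, 22 were lower at 48 hours than at 6 hours and 0 were higher, beside 18.4% and 18% of all probe sets. The median log2 difference of the 24 was 0.82 at 6 hours, -0.28 at 48 hours and -1.10 between the times, beside 0.0033, -0.02 and -0.0167 over all probe sets. The probe sets of a gene share its RNA, and the 3 comparisons share arrays, so these counts are not independent. With the probe set of highest mean for each gene (9, as HSPA1A and HSPA1B share theirs), 8 rose and 0 fell at 6 hours, 2 rose and 5 fell at 48 hours, and 9 fell between the times. Of all 19775 genes, adjusted over genes, 17.2% rose and 16.9% fell at 6 hours, and 23.9% rose and 24.3% fell at 48 hours. Between the times 23.6% rose and 23.4% fell. As these are bulk cultures, fewer cells with an RNA and less of it per cell cannot be told apart.

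**Figure D2:**
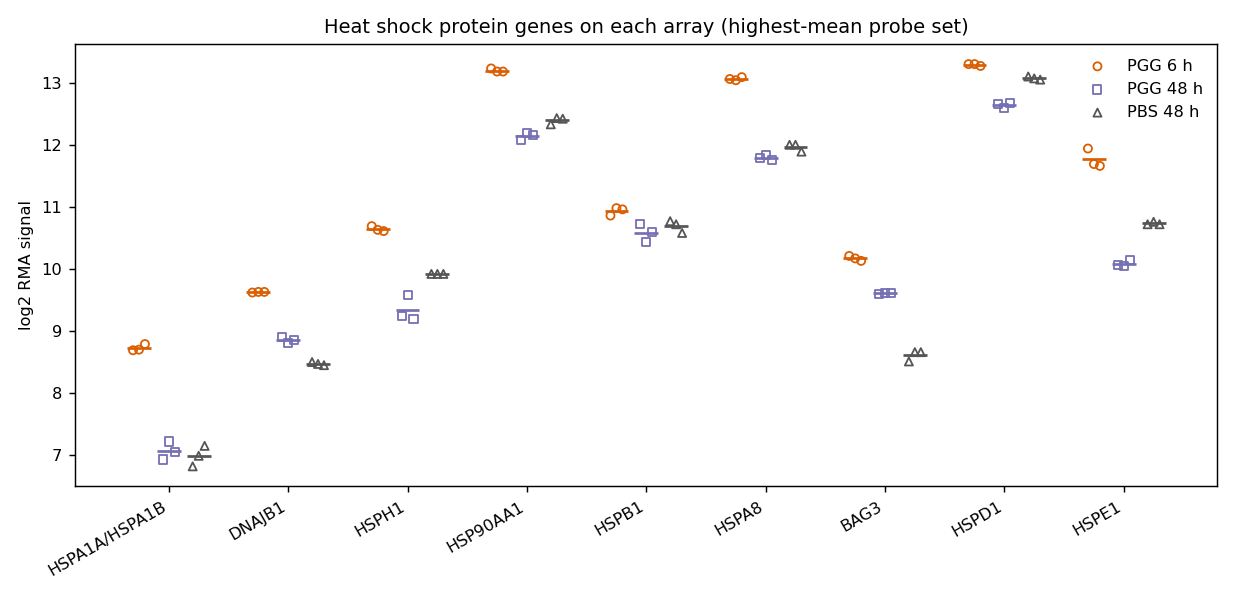
Log2 signal of the highest-mean probe set of each heat shock gene on every array (points), with group means (lines), for PGG 6 h, PGG 48 h and PBS 48 h from left to right. The PGG 6 h points lie above the PBS points for every gene shown, and for BAG3 and DNAJB1 the PGG 48 h points do so too. Such separation was not counted over all probe sets.

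By joint pattern, 12 of the 24 probe sets rose at 6 hours and fell at 48 hours against PBS, a pattern met by 2.36% of all probe sets. A further 5 rose at 6 hours and were not called at 48 hours, and 3, of DNAJB1 and BAG3, rose at both times. The other 4 were 2 called lower at 48 hours alone and 2 called at neither time. Shares of all probe sets were not computed for the patterns other than the first. At the larger cut-off that the study used (an adjusted p of less than 0.005 with a log2 difference larger than 1.5), 2 member probe sets rose at 6 hours, beside 0.298% of all, and 0 fell, beside 0.434%. The 2 belong to HSPA1A with HSPA1B and to BAG3. At 48 hours 1 fell, beside 1.85% of all, a probe set of HSPH1, and 0 rose, beside 2.25%. Between the times 6 fell and 0 rose, beside 1.27% and 1.75% of all.

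The inducible HSP70 genes HSPA1A and HSPA1B, which encode nearly identical proteins and are silent or low in unstressed cells of many kinds, had the largest 6-hour rise of the 24 probe sets. Their brightest probe set (200799_at) read 8.69, 8.70 and 8.79 on the PGG 6 h arrays, 6.93, 7.22 and 7.05 on the PGG 48 h arrays and 6.82, 6.99 and 7.15 on the PBS arrays. The PGG 6 h arrays lay clear of all others, and the PGG 48 h and PBS arrays overlapped. The 6-hour difference was 1.74 log2 (SE 0.10), 3.34-fold, with an adjusted p of 5.6e-07. At 48 hours it was 0.08 (95% confidence interval -0.14 to 0.30; adjusted p = 0.58), and between the times the level fell by 1.66 (adjusted p = 1.8e-07). The probe set that also names HSPA1L, a testis HSP70 (200800_s_at), gave differences of 1.00 at 6 hours, called, and -0.15 at 48 hours, not called. The dimmest of the 3 (202581_at) read 6.29, 6.24 and 5.89 on the PGG 6 h arrays, 5.37, 5.45 and 5.23 on the PGG 48 h arrays and 5.89, 5.51 and 5.58 on the PBS arrays. Its PGG 6 h and PBS arrays overlapped by a tie at 5.89, and its 6-hour difference of 0.48 (adjusted p = 0.016) was no longer called without any 1 of PGG 6 h replicate 1 or 2 or PBS replicate 2 or 3 (adjusted p 0.063 to 0.073). At 48 hours all its PGG arrays lay below all its PBS arrays, with a difference of -0.31 (adjusted p = 0.077) that was called as a fall without PGG 6 h replicate 3 (adjusted p = 0.044) and with the replicate number as a block (0.035).

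HSPA8, the constitutive HSP70 that folds new proteins and strips clathrin from vesicles, rose on all 4 of its probe sets at 6 hours, by 0.84 to 1.22 log2. The probe set of highest mean (224187_x_at) read 13.06, 13.04 and 13.09 on the PGG 6 h arrays, 11.78, 11.83 and 11.76 on the PGG 48 h arrays and 12.00, 12.00 and 11.89 on the PBS arrays. All 3 PGG 6 h arrays were about a unit of log2 above the rest, with a difference of 1.10 (SE 0.06, 2.14-fold, adjusted p = 5.4e-07). At 48 hours the PGG arrays lay just under the PBS arrays, and the fall of 0.17 had an adjusted p of 0.045. That call was lost on quantile normalization, where the difference was -0.075 and the adjusted p 0.38, and also on leaving out any 1 of 7 arrays (adjusted p 0.063 to 0.12), all but PGG 48 h replicate 2 and PBS replicate 3. The other 3 probe sets differed from PBS by -0.07, -0.39 and -0.13 at 48 hours, of which only -0.39 passed (adjusted p = 0.011). Between the times all 4 fell, by 0.90 to 1.57.

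DNAJB1, the main heat-inducible J-domain protein of the cytosol, which delivers clients to HSP70 and stimulates its ATPase, was higher at both times. Its probe set of higher mean (200666_s_at) read 9.62, 9.63 and 9.63 on the PGG 6 h arrays, 8.91, 8.80 and 8.86 on the PGG 48 h arrays and 8.50, 8.47 and 8.45 on the PBS arrays. The 3 groups did not overlap, and the order was PGG 6 h, PGG 48 h, PBS. The rise was 1.15 log2 (SE 0.06, adjusted p = 3.0e-07) at 6 hours and 0.38 (SE 0.06, adjusted p = 2.8e-04) at 48 hours, with a fall of 0.77 between the times (adjusted p = 1.3e-06). The other probe set (200664_s_at) read 9.05, 9.08 and 9.04 on the PGG 6 h arrays, 8.98, 8.87 and 8.89 on the PGG 48 h arrays and 8.09, 7.64 and 7.78 on the PBS arrays. On it the 48-hour rise was 1.08, close to the 1.22 at 6 hours, and the change between the times of -0.14 (95% confidence interval -0.37 to 0.08) was not called. The DNAJB1 probe sets therefore differ on how much of the rise was left at 48 hours.

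BAG3, a nucleotide exchange factor that links HSP70 to small heat shock proteins and to selective autophagy, was the gene of this group with the largest rise still present at 48 hours by its probe set of highest mean. Its single probe set (217911_s_at) read 10.21, 10.17 and 10.13 on the PGG 6 h arrays, 9.60, 9.61 and 9.61 on the PGG 48 h arrays and 8.51, 8.66 and 8.66 on the PBS arrays. Replicates lay close together and the 3 groups did not overlap. The rise was 1.56 log2 (SE 0.06, 2.95-fold, adjusted p = 8.3e-08) at 6 hours and 1.00 (SE 0.06, 2-fold, adjusted p = 2.9e-07) at 48 hours. BAG3 nevertheless fell by 0.56 between the times (adjusted p = 3.1e-05).

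HSPH1 (HSP105), an HSP110 that exchanges nucleotide on HSP70 and helps to dissolve aggregates, took the opposite course at 48 hours. Its brightest probe set (206976_s_at) read 10.69, 10.63 and 10.61 on the PGG 6 h arrays, 9.24, 9.58 and 9.20 on the PGG 48 h arrays and 9.92, 9.92 and 9.92 on the PBS arrays. The PBS arrays were the same to 2 decimals, the PGG 6 h arrays lay above them and the PGG 48 h arrays below them. The difference was 0.72 (SE 0.09, adjusted p = 1.8e-04) at 6 hours and -0.58 (SE 0.09, adjusted p = 4.0e-04) at 48 hours. A dim probe set of the gene (235573_at) read 6.57, 6.50 and 6.75 on the PGG 6 h arrays, 4.51, 4.67 and 4.31 on the PGG 48 h arrays and 5.93, 6.07 and 6.15 on the PBS arrays, and it fell by 1.55 at 48 hours (adjusted p = 3.8e-07) and by 2.11 between the times. The third (208744_x_at) rose by 0.56 and fell by 0.66, so all 3 probe sets had 1 direction at each time but differed in size.

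HSP90AA1, the stress-inducible HSP90 of the cytosol, which holds kinases and steroid receptors in an active form, rose at 6 hours and fell below PBS at 48 hours on all 4 of its probe sets. The brightest (210211_s_at) read 13.23, 13.18 and 13.18 on the PGG 6 h arrays, 12.07, 12.19 and 12.16 on the PGG 48 h arrays and 12.33, 12.43 and 12.42 on the PBS arrays. The groups did not overlap. The rise at 6 hours was 0.80 (SE 0.06, adjusted p = 5.4e-06), and the fall at 48 hours was smaller, 0.25 (SE 0.06, adjusted p = 0.0075). The probe set with the largest swing (211968_s_at) read 12.25, 12.21 and 12.27 on the PGG 6 h arrays, 10.48, 10.44 and 10.36 on the PGG 48 h arrays and 10.98, 10.98 and 10.98 on the PBS arrays. Against PBS it rose by 1.26 at 6 hours, fell by 0.55 after 48 hours and fell by 1.82 between the times (adjusted p = 4.5e-09). At 6 hours the other 2 rose by 0.74 and 0.89, and at 48 hours they had fallen by 0.23 and 0.31.

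HSPB1 (HSP27), an ATP-independent small heat shock protein that holds unfolded clients and binds actin filaments, had the smallest change between the times among the 9 highest-mean probe sets. Its probe set (201841_s_at) read 10.86, 10.98 and 10.96 on the PGG 6 h arrays, 10.72, 10.44 and 10.59 on the PGG 48 h arrays and 10.77, 10.72 and 10.58 on the PBS arrays. The PGG 6 h arrays lay just above the PBS arrays, and the PGG 48 h and PBS arrays overlapped. The 6-hour difference of 0.24 (95% confidence interval 0.05 to 0.43) had an adjusted p of 0.063 over all probe sets, and 0.039 over the 19775 genes. It was also called without PGG 48 h replicate 1 (adjusted p = 0.044) or replicate 2 (0.034). Leaving out dim probe sets (0.038), another variance model (0.026), array weights (0.016) and the 6 arrays compared alone (0.037) called it too. Settings that did not call it included quantile normalization (difference 0.18, adjusted p = 0.17) and median centring (0.25, adjusted p = 0.056). At 48 hours the difference was -0.11 (95% confidence interval -0.30 to 0.08, adjusted p = 0.38). HSPB1 fell by 0.35 between the times (adjusted p = 0.007).

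On their brightest probe sets, both mitochondrial genes rose at 6 hours and fell at 48 hours. HSPE1 (HSP10), the lid of the chaperonin, read 11.94, 11.69 and 11.66 on the PGG 6 h arrays, 10.06, 10.05 and 10.14 on the PGG 48 h arrays and 10.72, 10.76 and 10.72 on the PBS arrays on its probe set (205133_s_at). The 3 groups did not overlap, with PGG 48 h lowest. HSPE1 rose by 1.03 log2 (SE 0.08, 2.04-fold, adjusted p = 4.9e-06) at 6 hours and fell by 0.65 (SE 0.08, adjusted p = 4.9e-05) at 48 hours, and the fall between the times was 1.68 (adjusted p = 4.1e-08). HSPD1 (HSP60), the ring, read 13.30, 13.30 and 13.27 on the PGG 6 h arrays, 12.65, 12.60 and 12.67 on the PGG 48 h arrays and 13.10, 13.07 and 13.05 on the PBS arrays on its brightest probe set (200807_s_at). Its groups did not overlap either, but the 6-hour rise was 0.22 (SE 0.06, adjusted p = 0.017), and it was no longer called without any 1 of PGG 6 h replicate 1 or 2 or PBS replicate 3 (adjusted p 0.054 to 0.057). At 48 hours HSPD1 fell by 0.43 (adjusted p = 8.9e-05). Array by array, the log2 signal of HSPE1 minus that of this HSPD1 probe set changed by 0.81 in PGG 6 h against PBS, and the change was 0.31 to 1.59 with the other 4 HSPD1 probe sets. The largest, 1.59 and 1.17, were with 241716_at and 243845_at, whose means lay below the median probe set mean. With such dim probe sets the change mainly reflects HSPE1. The arrays did not overlap with any of the 5 HSPD1 probe sets, and the exact two-sided permutation p was 0.1 each time, the smallest that 3 arrays against 3 allow. At 48 hours against PBS the direction depended on the HSPD1 probe set: it was -0.22 with the brightest, 0.15 with the second brightest (overlapping arrays) and -0.58 to 0.79 over the other 3. Between the times it was -1.03 with the brightest and -1.75 to 0.48 with the others, where -1.75 was with the dim 243845_at.

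The other 4 HSPD1 probe sets disagreed in size and partly in call. A dimmer one (243372_at) read 7.44, 7.28 and 7.27 on the PGG 6 h arrays, 5.05, 5.36 and 5.10 on the PGG 48 h arrays and 6.61, 6.43 and 6.80 on the PBS arrays. It rose by 0.72 at 6 hours (adjusted p = 5.9e-04) and fell by 1.44 at 48 hours (adjusted p = 1.0e-06), larger in both directions than the brightest. The second brightest (200806_s_at) differed by 0.27 at 6 hours (adjusted p = 0.095) and fell by 0.80 at 48 hours. Its 6-hour value was called as a rise without PGG 48 h replicate 1 (adjusted p = 0.032), with array weights (0.018), with the 6 arrays compared alone (0.032) and with the replicate block (0.045). The probe set 241716_at, whose group means of 4.42 in PGG 6 h, 3.67 in PGG 48 h and 4.98 in PBS all lay below the array medians, so that its size of change is uncertain, differed by -0.56 at 6 hours (adjusted p = 0.095) and fell by 1.31 at 48 hours. Its 6-hour value passed as a fall without PGG 48 h replicate 2 (adjusted p = 0.0039). Without the 2 dimmest member probe sets, 13 of 22 fell at 48 hours. The last (243845_at) differed by -0.14 and -0.07 and was called at neither time. Its group means were 5.12 in PGG 6 h, 5.19 in PGG 48 h and 5.26 in PBS, close to the array medians. The exon or intron position of these probe sets was not analysed here.

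**Figure D3:**
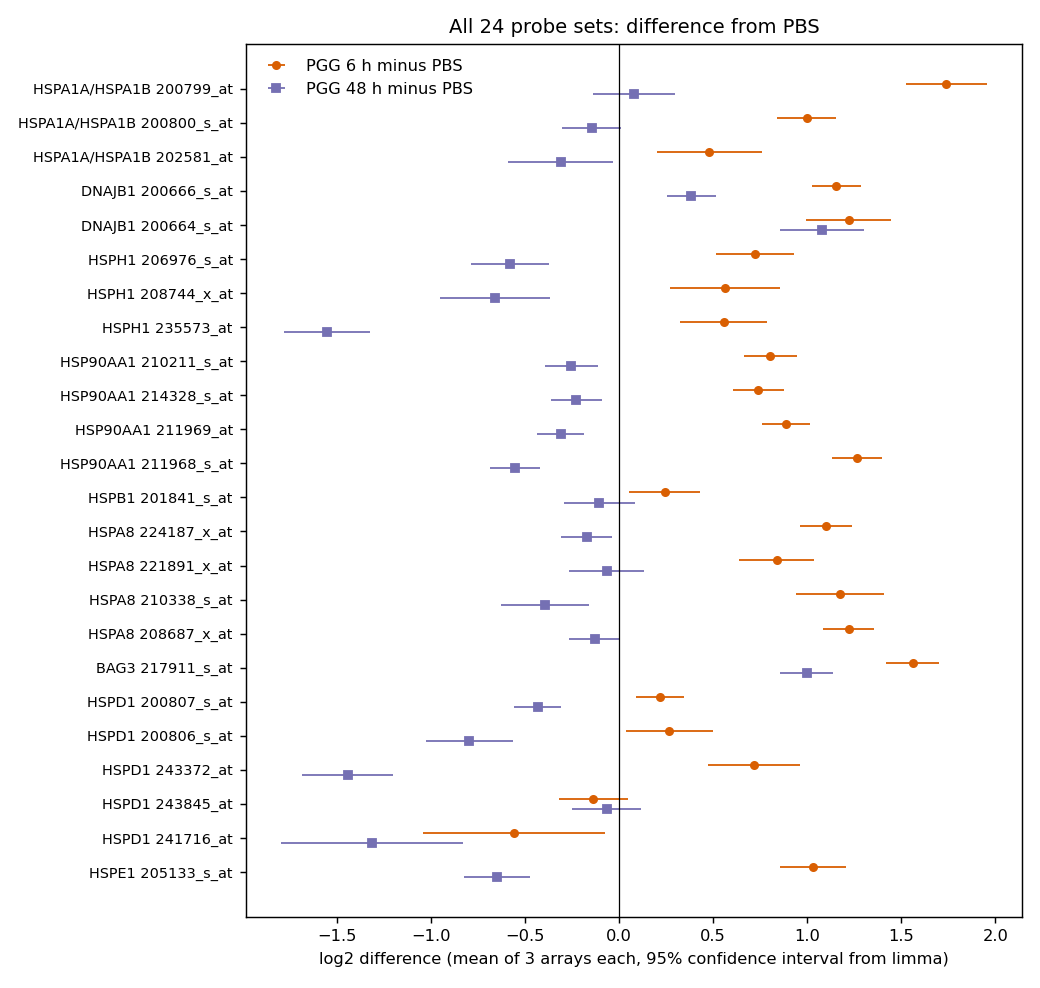
Log2 differences of the 24 member probe sets, PGG 6 h minus PBS and PGG 48 h minus PBS, with their 95% confidence intervals from limma. Most 6-hour points lie right of 0 and most 48-hour points left of it, whereas BAG3 and DNAJB1 lie right of 0 at both times.

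Beyond these 10 genes, the other chaperones of the cytosol and mitochondrion were read from lists at 1 probe set per gene, with 71 of 74 measured. Of the 71, 28 rose and 18 fell at 6 hours, beside 17.2% and 16.9% of all 19775 genes, and 17 rose and 36 fell at 48 hours, beside 23.9% and 24.3%. Between the times 10 rose and 39 fell, beside 23.6% and 23.4%. Their median was 0.08 at 6 hours and -0.21 at 48 hours. The TRiC ring and prefoldin, which fold actin and tubulin, had 8 of 12 higher and 1 lower at 6 hours and 1 higher and 9 lower at 48 hours. CCT5 of TRiC rose at 6 hours by 0.35 and had fallen by 1.65 after 48 hours. Among HSP90 and its co-chaperones, 2 of 11 rose and 3 fell at 6 hours, and 1 rose and 7 fell at 48 hours. HSP90AB1, the constitutive cytosolic HSP90, rose by 0.42 at 6 hours and had a difference of 0.00 at 48 hours. STIP1, which bridges HSP70 and HSP90, differed by 0.18 at 6 hours (not called) and fell by 1.33 at 48 hours, and FKBP5, an immunophilin of steroid receptor complexes, differed by -0.13 and fell by 1.85.

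Mitochondrial chaperones and proteases other than HSPD1 and HSPE1 were mostly lower: at 6 hours 3 of 16 rose and 11 fell, and at 48 hours 4 rose and 10 fell. HSPA9, the mitochondrial HSP70 that pulls in and folds imported proteins, fell by 0.72 at the early and by 0.67 at the late time. CLPX, an unfoldase of the matrix, fell by 1.16 at 6 hours and differed by -0.06 at 48 hours. TRAP1, the mitochondrial HSP90, fell by 0.36 and by 1.40. The 3 that rose at 6 hours were GRPEL1, the nucleotide exchange factor of HSPA9, by 0.53, CLPB, a disaggregase, by 0.48 and DNAJC15, a J-domain protein of the inner membrane, by 0.25.

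In the J-domain list 5 of 10 rose and 1 fell at 6 hours, and 5 rose and 2 fell at 48 hours. DNAJB2, a J-domain protein best known in neurons that sends clients to the proteasome, differed by 0.13 at 6 hours (not called) and rose by 1.85 at 48 hours. Of 8 other exchange and adaptor factors, 5 rose and 1 fell at 6 hours and 4 rose and 4 fell at 48 hours, and BAG2, which inhibits the ubiquitin ligase CHIP, rose by 0.29 and then fell by 1.71 against PBS. Among 8 other small heat shock proteins 3 rose and 0 fell at 6 hours, and 1 rose and 1 fell at 48 hours. Most of the 8 were dim: HSPB2, HSPB3, HSPB6, HSPB7, HSPB9 and CRYAA had group means below the array medians. The 3 rises include HSPB7, at 4.50 in PGG 6 h and 4.21 in PBS, so that rise is uncertain. HSPB8, the small heat shock protein that binds BAG3, rose by 0.63 at the early and by 1.56 at the late time. In the HSP70 and HSP110 family outside the members, 2 of 6 rose and 1 fell at 6 hours, and 1 rose and 3 fell at 48 hours. HSPA4L, an HSP110 relative of HSPH1, fell by 1.17 at the early and by 1.14 at the late time, whereas HSPH1 rose at 6 hours.

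In the list of heat shock factors and HSF1 regulators, 0 of 4 measured rose and 3 fell at each time. The 3 were HSF1, HSBP1 and HSF2BP, which is named for binding HSF2. HSF1 was thus the only measured heat shock factor that fell. HSF1 itself, which acts mainly through its protein state rather than its RNA level, fell by 0.70 at 6 hours (adjusted p = 0.0042 by limma over genes) and by 1.19 at 48 hours (adjusted p = 4.2e-05). The HSF1 signal was 7.70, 6.90 and 7.56 on the PGG 48 h arrays and 8.57, 8.53 and 8.63 on the PBS arrays. Its lowest value was on PGG 48 h replicate 2, the array with the largest 3′ minus 5′ difference, so the size of the 48-hour fall is uncertain. HSF2 had no probe set of its own in the annotation used. In a list of other genes described as HSF1 targets, 4 of 11 rose and 2 fell at 6 hours, and 5 rose and 3 fell at 48 hours, with medians of -0.13 and 0.16. As for all lists here, 17.2% of all genes rose and 16.9% fell at 6 hours, and 23.9% and 24.3% at 48 hours. The largest 6-hour change of the list was a fall, of 1.34 for TCEA1, a transcription elongation factor, which was also 1.04 lower than PBS at 48 hours. DEDD2 rose by 1.19 and by 2.41, and CACYBP, an adaptor of a ubiquitin ligase, rose by 1.13 at 6 hours but by 48 hours had fallen by 0.62.

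Chaperones of the endoplasmic reticulum, which answer to the unfolded protein response of that compartment rather than to HSF1, were set beside the members. Of 14, 5 rose and 4 fell at 6 hours, and 8 rose and 2 fell at 48 hours, with medians of -0.08 and 0.32 at 1 probe set per gene. The 9 highest-mean probe sets of the members had medians of 1.03 and -0.17. HSPA5, the HSP70 of that compartment, had a difference of -0.03 at 6 hours (not called) and rose by 0.56 at 48 hours. The difference between the groups of genes was not tested.

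**Figure D4:**
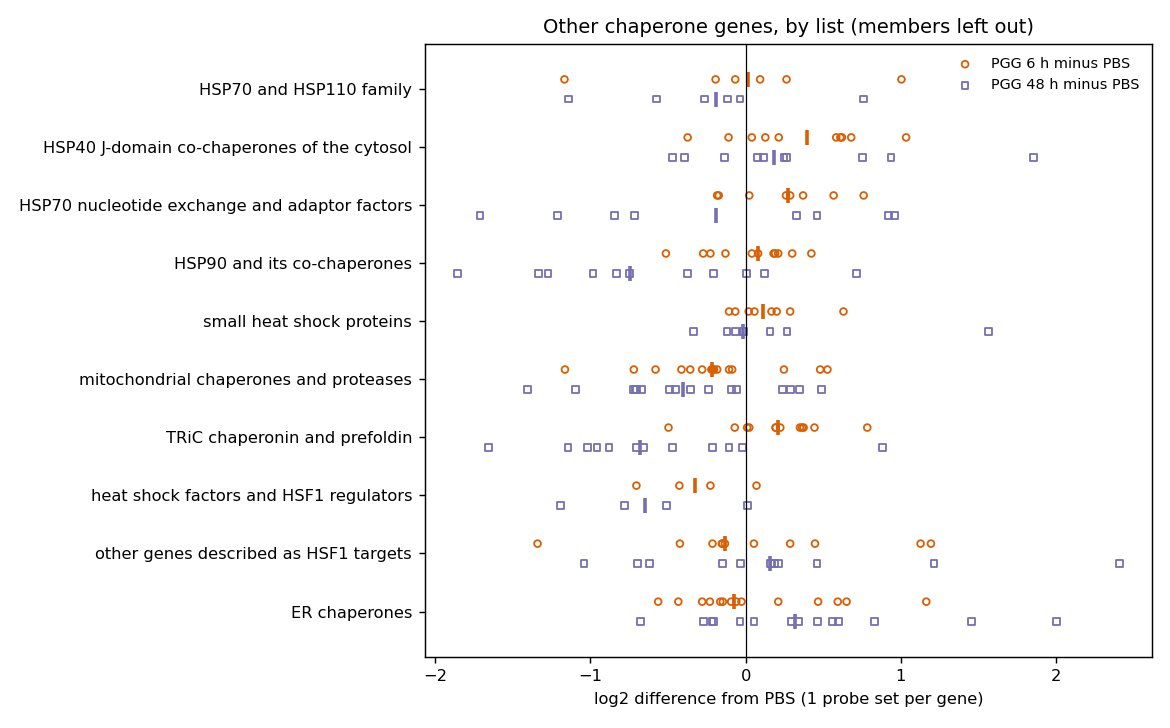
Log2 differences of the other chaperone genes by list, with the members left out, for PGG 6 h minus PBS and PGG 48 h minus PBS on the horizontal axis and 1 row per list, with a point per gene and a short vertical bar at the median. The TRiC and prefoldin genes lie mostly right of 0 at 6 hours and left of 0 at 48 hours, and the ER chaperones lean right at 48 hours.

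Genes with the nearest course over the 9 arrays were found by the root mean square distance between log2 profiles after subtraction of the PBS mean. For the HSPA1A and HSPA1B probe set these were E2F7, a repressor of cell cycle genes (distance 0.15), PLK2, a polo-like kinase (0.16), and PKP2, a desmosome protein (0.17), among 19775 genes. E2F7 differed from PBS by 1.80 at 6 hours and by 0.18 at 48 hours, PLK2 by 1.70 and 0.21, and PKP2 by 1.61 and 0.15. For HSPD1 they were PGD, an enzyme of the pentose phosphate pathway (0.047), DNMT1, the maintenance DNA methyltransferase (0.051), and MRPL22, a mitochondrial ribosomal protein (0.056). A small distance over arrays of 3 groups describes a shared shape and is no test.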

How the data were processed

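The 9 Affymetrix arrays of Huh7 RNA were grouped by their titles. According to the methods and the submitters' processing notes, the authors applied RMA with Affymetrix Expression Console and deposited 1 log2 value per probe set and array. Its version number: not given in the sources used here. RMA sets all arrays to 1 distribution, so values are relative within an array, and low values are compressed. The table held 54675 probe sets, and 62 controls were left out, which left 54613. The platform annotation gave 41091 of them 1 symbol, 1801 several and 11721 none. The RefSeq table (GRCh38.p14) held the Entrez identifier of 41037 of the probe sets with 1 symbol, and 0 symbols changed. There were 0 value columns without a sample. Arrays hold no counts, so precision rests on 3 arrays per group.

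Groups were compared with limma 3.58.1 under R 4.3.3 (1 mean per group, eBayes, all 9 arrays), with Benjamini-Hochberg adjustment over the 54613 probe sets, or over 19775 genes at the highest-mean probe set naming 1 gene. A difference was called at an adjusted p under 0.05. The steps were tested on simulated data. Promoter sequences came from RefSeq, GRCh38.p14. The members and lists were chosen with earlier results of these data known. Named are all member probe sets, up to 3 rises and 3 falls per list, 5 fixed genes (HSF1, HSF2, HSP90AB1, HSPA9, HSPA5) and the 3 nearest profiles of HSPA1A and HSPD1. Marker genes named with their levels were chosen after their values were seen. Alternatives were other normalizations, a filter on dim probe sets, other variance models, array weights, 6 arrays, a replicate block, the methods' t-test, each array left out and the study's threshold.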

Additional observations from a re-analysis of the deposited data

Results flagged for a closer look

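Levels differed between 48 hours and 6 hours of PGG for all 9 highest-mean probe sets of the members, tested by limma's contrast of the PGG times. As no PBS array was taken at 6 hours, time in culture and the effect of PGG cannot be told apart in it. The log2 difference, PGG 48 h minus PGG 6 h, was -1.66 for HSPA1A with HSPA1B, -1.68 for HSPE1, -1.30 for HSPH1, -1.27 for HSPA8 and -1.06 for HSP90AA1. It was -0.77 for DNAJB1, -0.65 for HSPD1, -0.56 for BAG3 and -0.35 for HSPB1. In these 9 probe sets every PGG 48 h array lay below every PGG 6 h array, a separation that was not counted over all probe sets. Between the times 18.4% of all 54613 probe sets and 23.4% of all 19775 genes were called lower. Groups of 3 arrays were not searched for single arrays far from the others.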

How the results depend on the processing

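No direction of a called member reversed under any alternative run. With the study's threshold, by limma and by the methods' t-test alike, the member counts were 2 higher at 6 hours, 0 higher and 1 lower at 48 hours, and 6 lower between the times, and the counts of other chaperones were 0 higher and 0 lower, 2 higher and 3 lower, and 1 higher and 4 lower. With array weights, and with the 6 arrays compared alone, 1 member probe set fell at 6 hours (HSPD1, 241716_at). With the mean of all probe sets per gene, 5 other chaperones rose between the times, against 10. Of settings chosen after seeing the data, probe sets naming 1 gene gave 13 higher at 6 hours (of 17), and the highest-mean probe sets gave 8 higher at 6 hours, 5 lower at 48 hours and 9 lower between the times (of 9). The other HSPD1 probe sets in the HSPE1 minus HSPD1 change were also set in after seeing the data. After Benjamini-Hochberg adjustment the methods' t-test called 18 higher and 0 lower at 6 hours, 3 and 10 at 48 hours and 0 and 20 between the times. Over single member probe sets it lost 8 calls, quantile normalization and median centring lost 1 each, array weights added 3, and the replicate block lost 1 (HSPA8, 224187_x_at, at 48 hours) and added 2 (HSPD1, 200806_s_at, at 6 hours and HSPA1A with HSPA1B, 202581_at, at 48 hours).

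Leaving out 1 array at a time gave 18 to 22 higher and 0 to 1 lower at 6 hours (1 without PGG 48 h replicate 2), 3 higher and 13 to 14 lower at 48 hours, and 0 higher and 21 to 22 lower between the times. For the other chaperones the ranges were 21 to 28 higher and 13 to 20 lower at 6 hours, 15 to 18 and 34 to 36 at 48 hours, and 9 to 10 and 35 to 39 between the times. With the replicate number as a block, 21 member probe sets rose and 0 fell at 6 hours, 3 rose and 14 fell at 48 hours, and 22 fell between the times. Deviations of same-numbered arrays correlated by -0.09 to 0.16. As not every pair was above 0.1, the numbers were not taken as pairing, although 6 of 9 arrays correlated best with their own number, a hint from the data towards pairing. Dim probe sets limit what can be read: 22 of the 24 lay above the median probe set mean. Other limits are the absence of a 6-hour PBS group, the 3′ minus 5′ shift of the beta-actin control in PGG 48 h, shared probe sets and 3 arrays per group.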
